A study of Rattus norvegicus with 250 samples.

Results

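Ist1, Vps9d1 and Afg3l1 are 3 genes of rat chromosome 19 whose levels were read in the hippocampus of F2 rats, bred by crossing bred High Responders with bred Low Responders and intercrossing their offspring. They were taken by their Ensembl gene ids, ENSRNOG00000015144 for Ist1, ENSRNOG00000028904 for Vps9d1 and ENSRNOG00000026994 for Afg3l1. The ids of Vps9d1, Afg3l1 and the related gene Spg7 were read from a picture of the study's candidate table and could not be checked against an annotation, and every value of these genes rests on them. All 3 were among the 32883 genes of the table, and all 3 were among the 19448 genes with at least 1 read in 25% of the rats used. The study had selected them as candidates partly on their relations to LocoScore, elevated plus maze behavior, PavCA Index and genotype in these same animals. The members were thus chosen by measured values of these rats, and their slopes on those behaviors and their family means are given as descriptions with no test.

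The rats, 122 males and 123 females after 5 libraries that failed quality control were left out, were adults of 12 intercross families, with no drug or transgene named in the labels. Each gave 1 polyA library from pooled dorsal and ventral punches of the left (123 rats) or right (122 rats) hippocampus. Each rat had a LocoScore (beam breaks in an unfamiliar enclosure) and elevated plus maze (EPM) measures, and 208 were also trained in Pavlovian Conditioned Approach (PavCA), which scores approach to a lever (sign-tracking) against approach to the food magazine (goal-tracking), while 37 were not. Age at death ran from 113 to 123 days in males and from 124 to 132 days in females, and no date of death held both sexes, so sex cannot be told apart from age and date. Males and females were also housed in separate rooms on different light cycles, which cannot be told apart from sex either. The F1 parents had been mated by similar LocoScore, so the families were not random samples of the cross. Libraries held 17.9 to 31.5 M counts, a median of 21.6 M. Slc17a7, the glutamate transporter of hippocampal principal neurons, was at 547.3 CPM or more in every library.

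The 3 proteins work in separate parts of the cell. Ist1 belongs to the ESCRT-III family, proteins that assemble into filaments on membranes and pinch them off, and it recruits the ATPases VPS4 and spastin that take those filaments apart, in endosomal tubule fission and in the last step of cell division. Vps9d1 carries a VPS9 domain, the part by which other proteins of its kind load GTP onto the Rab5 family of small GTPases that direct early endosomes. Afg3l1 is a subunit of the m-AAA protease, which faces the mitochondrial matrix from the inner membrane and degrades or processes membrane and ribosomal proteins there. Its human counterpart is a pseudogene, while in rodents it is an active gene. Spg7 encodes paraplegin, another m-AAA subunit, which is mutated in a form of hereditary spastic paraplegia.

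On RefSeq's GRCr8 assembly, used here only for gene order and promoter sequence, 7 protein-coding genes lay between Vps9d1 and Afg3l1, and 8 lay between Spg7 and Vps9d1. Ist1 was farther off, with 144 protein-coding genes between it and Vps9d1. Ist1 lay between Pkd1l3 and Zfp821, and Vps9d1 between Spata2L and Zfp276. Reads were counted by strand, and overlap with neighbors on the assembly used for counting was not checked. All 3 genes, and Spg7, held the GC box (GGGCGG on either strand), the letters that Sp1-type factors bind, in the 300 bases around their annotated start (250 before and 50 after). The same letters occurred in 33.1% of 33469 such windows. The windows held 19 CpG pairs for Ist1, 21 for Vps9d1 and 32 for Afg3l1, with a median of 7 over all windows. The 30 bases around the first GC box are shown 5′ to 3′ on the strand of each gene with the box in capitals, because the genes' start regions share it. The box starts 87 bases upstream of the start in Ist1, 19 upstream in Vps9d1 and 42 downstream in Afg3l1.
Ist1 (GRCr8, chr19:54580561-54580590, minus strand): tagtccccagccCCGCCCcgtgttgtgcgc
Vps9d1 (GRCr8, chr19:68199246-68199275, minus strand): ttctgcgcggcgGGGCGGggccggcggaag
Afg3l1 (GRCr8, chr19:68417121-68417150, plus strand): gggatgttactccggctggtggGGGCGGcg

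Every library had reads from all 3 genes. Levels are given in CPM, a gene's reads scaled to a library of 1 M counts, which depend on transcript length and so are not compared between genes. Ist1 ran from 54.2 to 131.1 CPM with a median of 96.9. Vps9d1 was the most variable, from 7.01 to 24.8 CPM with a median of 13.9. Afg3l1 lay between 11.1 and 31.5 CPM with a median of 20.4. The rat with the lowest Vps9d1 (Female replicate 105, 140 reads) was also among the lowest for Ist1 at 54.7 CPM, and the pair with the highest Ist1 (Male replicate 69 and Female replicate 58) also had the highest Vps9d1, at 23.8 and 24.8 CPM.

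Much of this spread moved with the composition of the RNA. The intergenic percentage, the share of sequenced bases outside annotated genes, ran from 9.91% to 17.3% over the 245 rats. Its correlation with log2 CPM was 0.89 for Vps9d1, 0.80 for Ist1 and 0.68 for Afg3l1, as a description across rats. In limma-voom with Benjamini-Hochberg adjustment over all genes, a model that also held LocoScore, sex, ribosomal percentage, dissector, training and sequencing batch gave each gene a rise per percentage point of intergenic share. The rise was 0.18 ± 0.011 on the log2 scale (SE; adjusted p = 8.13e-39) for Vps9d1, 0.088 ± 0.012 (adjusted p = 1.73e-11) for Afg3l1 and 0.054 ± 0.0067 (adjusted p = 9.69e-14) for Ist1. This term was called at an FDR of 0.10 for 77.3% of all genes, so being called was the usual case. The ribosomal percentage (0.48% to 2.88% of bases) went the other way. Its correlation with log2 CPM was -0.85 for Ist1, -0.77 for Vps9d1 and -0.58 for Afg3l1. In the model its slopes were -0.24 ± 0.028 for Ist1 (adjusted p = 9.24e-15), -0.17 ± 0.049 for Vps9d1 (adjusted p = 0.00130) and -0.12 ± 0.052 for Afg3l1 (adjusted p = 0.0334), in limma-voom with 68.8% of genes called.

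**Figure D1:**
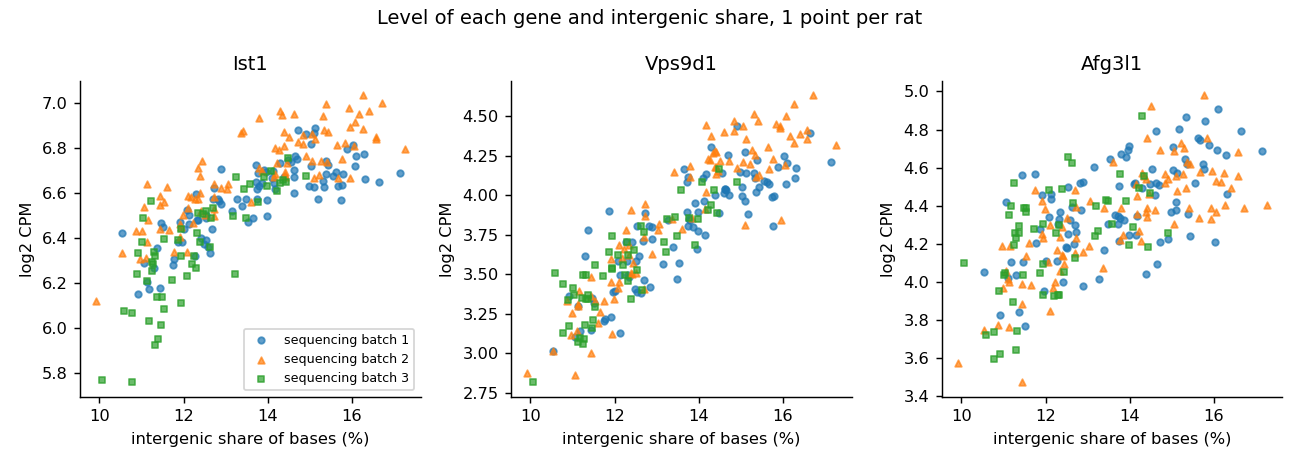
Log2 CPM of Ist1, Vps9d1 and Afg3l1 (y axis) against the intergenic share of sequenced bases in percent (x axis), with 1 point for each of 245 rats and a marker for each sequencing batch. All 3 genes were higher in libraries with a larger intergenic share, with Vps9d1 (r = 0.89) closest to a line.

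Sequencing batch was also called for each of the genes, as it was for 56.7% of all genes (limma-voom F test over 3 batches). Ist1 was 0.063 higher on the log2 scale in batch 2 than in batch 1 and -0.065 in batch 3 against batch 1 (adjusted p = 1.40e-06). Vps9d1 (0.060 and 0.063, adjusted p = 0.0888) and Afg3l1 (-0.073 and -0.060, adjusted p = 0.0709) shifted by similar amounts. These are differences beside the other terms of the model. Without covariates, mean Vps9d1 was lower in batch 3 (3.545 log2 CPM) than in batch 1 (3.803). The dissector did not pass the threshold for any of them, with differences of 0.012 ± 0.018 for Ist1, -0.026 ± 0.028 for Vps9d1 and -0.016 ± 0.032 for Afg3l1. That term was called for 14.9% of genes.

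Once sex, ribosomal and intergenic percentage, dissector, training and batch were removed, the SD across rats fell from 0.23 to 0.10 for Ist1, from 0.41 to 0.17 for Vps9d1 and from 0.28 to 0.19 for Afg3l1 (log2). The part of the variance left was 19.4% for Ist1, 18.3% for Vps9d1 and 48.0% for Afg3l1, and its median over all genes tested was 49.6%. Levels with these covariates removed are called adjusted levels in what follows.

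Unadjusted levels of the 3 genes were positively related, and adjusted levels of Afg3l1 were not. Without adjustment the correlation across the 245 rats was 0.80 between Ist1 and Vps9d1, 0.49 between Ist1 and Afg3l1, and 0.55 between Vps9d1 and Afg3l1. In adjusted levels r was 0.22 between Ist1 and Vps9d1 (Spearman's rho = 0.24), -0.22 between Ist1 and Afg3l1 (rho = -0.21) and -0.20 between Vps9d1 and Afg3l1 (rho = -0.21). All 3 were weak in size, and they are set here beside the r of all other genes tested. The middle 90% of all genes lay between -0.21 and 0.27 in their r with Ist1, between -0.27 and 0.37 with Vps9d1 and between -0.19 and 0.22 with Afg3l1. The r of Ist1 with Vps9d1 fell inside both of those genes' ranges, that of Vps9d1 with Afg3l1 inside the range of Vps9d1 and just outside that of Afg3l1, and that of Ist1 with Afg3l1 just outside both. The genes were picked partly for behavior and genotype relations in these rats, which can bear on the signs between them, so the values are descriptions with no test.

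The signs were the same without the most extreme rats, with family removed and within each batch. Leaving out the pair of rats farthest from the median of the first-named gene gave r = 0.19, -0.21 and -0.22 for Ist1 with Vps9d1, Ist1 with Afg3l1 and Vps9d1 with Afg3l1. With family also removed, r was 0.22, -0.22 and -0.20. Within batch 1 the values were 0.29, -0.30 and -0.33, within batch 2 they were 0.37, -0.29 and -0.20, and within batch 3, the smallest at 56 rats, 0.21, -0.13 and -0.26. With intergenic percentage alone removed, the r of Afg3l1 was -0.12 with Ist1 and -0.16 with Vps9d1. With ribosomal percentage alone removed it was 0.0021 and 0.21, so the sign depended on which covariate was removed. All values share library, depth and scaling within a rat.

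**Figure D2:**
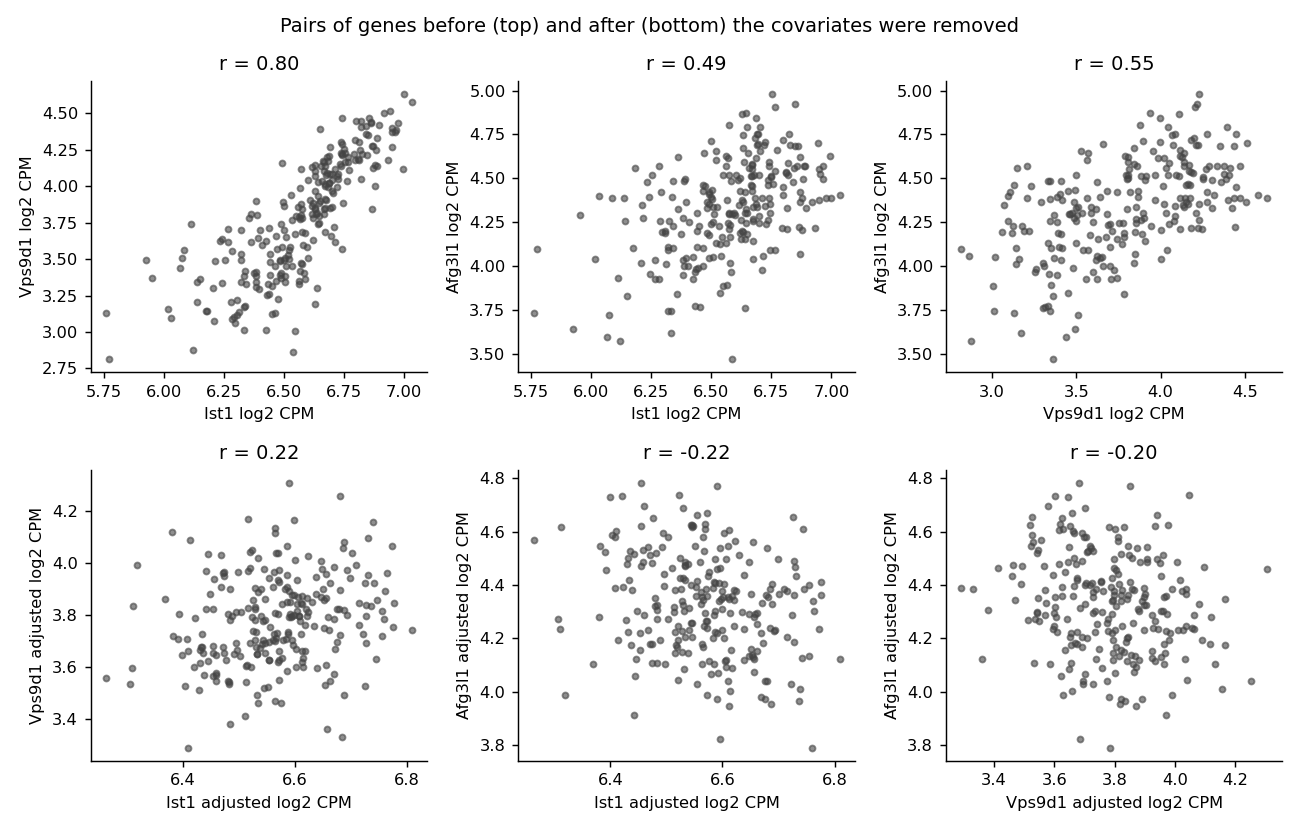
Each panel plots 1 gene against another in log2 CPM, with 1 point per rat (245 rats), unadjusted in the top row and with covariates removed in the bottom row, and Pearson's r above it. The positive relations of the top row (0.80, 0.49 and 0.55) became 0.22, -0.22 and -0.20 in the bottom row.

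Among all other genes tested, Spg7 was the closest to Afg3l1. The study had selected Spg7 as a candidate by the same criteria in these rats, so its likeness, LocoScore slope and family means are not independent of that choice. Their adjusted levels correlated at 0.71 across the 245 rats (rho = 0.72; 0.68 with family removed), while the next gene reached 0.42. Spg7 ran from 30.6 to 80.7 CPM with a median of 50.3. Its correlation was -0.37 with Vps9d1 and -0.24 with Ist1. The lowest value for Afg3l1 was -0.40. These are descriptions of likeness over rats, with genes sharing library and depth.

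Vps9d1 and Ist1 had broader company. Vps9d1 correlated above 0.4 with 608 genes and Ist1 with 119, whereas Afg3l1 did so with 3. The genes nearest to Vps9d1 were ENSRNOG00000021044 (0.56) and a second gene at 0.55, both without a symbol in the pairs used here, and Arhgef1 (0.54), an exchange factor for the GTPase RhoA. The most opposed were ENSRNOG00000007739 (-0.47), a gene at -0.46 and Arl6ip1 (-0.46), a protein that shapes the endoplasmic reticulum. Ist1 was nearest to ENSRNOG00000009882 (0.56) and most opposed to ENSRNOG00000009068 (-0.44), Asah2 (-0.44), a ceramidase, and Paqr7 (-0.43), a membrane progestin receptor.

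Afg3l1 was slightly lower in females than in males. Males ranged from 12.1 to 30.3 CPM with a median of 20.6, and females from 11.1 to 31.5 CPM with a median of 20.1, so the sexes overlapped over nearly their whole range. The female minus male difference was -0.072 ± 0.025 (log2, SE), a level 0.951 times that of males (limma-voom, adjusted p = 0.0636, FDR 0.10), in a comparison that called 9.08% of genes. In males Ist1 had a median of 97.0 CPM (64.7 to 131.1) and in females 96.0 CPM (54.2 to 127.9). The Ist1 difference was -0.0067 ± 0.014 (95% interval -0.033 to 0.020; limma-voom, adjusted p = 0.861). Vps9d1 had medians of 13.9 CPM in males (8.00 to 23.8) and 14.0 CPM in females (7.01 to 24.8), with a difference of -0.037 ± 0.023 (95% interval -0.081 to 0.0077; limma-voom, adjusted p = 0.392). Of the 3 genes, 1 was therefore called, and its call was narrow. Spg7 was lower in females by -0.087 ± 0.025 (limma-voom, adjusted p = 0.0174).

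The Afg3l1 sex difference kept its direction within each batch, at -0.046 ± 0.039, -0.031 ± 0.037 and -0.082 ± 0.062, none of which passed the threshold alone. Vps9d1 was called within batch 2 only, at -0.13 ± 0.034 (limma-voom, adjusted p = 0.0232), and stood at 0.0048 ± 0.034 in batch 1 and -0.037 ± 0.045 in batch 3. Markers of a neighboring region also differed between the sexes. Of 4 thalamus markers 2 were paired with an id, Tcf7l2 and Slc17a6 (a vesicular glutamate transporter), neither at 0 in any group, and both were higher in females, by 0.42 ± 0.11 and 0.28 ± 0.077 (limma-voom, adjusted p = 0.00718 and 0.0121). Their summed level ranged from 12.7 to 85.7 CPM in males and from 14.6 to 203.5 CPM in females. Slc17a7 was lower in females by -0.084 ± 0.021 (limma-voom, adjusted p = 0.00644). Of 5 astrocyte markers 3 were paired, and Gfap and Aqp4 were lower in females, by -0.15 ± 0.024 and -0.12 ± 0.022 (limma-voom, adjusted p = 2.06e-06 and 0.000106), while Slc1a3 stood at -0.018 ± 0.021. The summed astrocyte markers ranged from 1944 to 2838 CPM in males and from 1745 to 2834 CPM in females, none at 0, and their part in the Afg3l1 difference was not tested. In bulk tissue fewer cells of a type and less RNA per cell cannot be told apart. With the log2 of the summed thalamus markers in the model the Afg3l1 difference was as large, at -0.074 ± 0.026 (adjusted p = 0.103).

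Afg3l1 was also the gene of the 3 that differed with PavCA training, and that difference appeared only in adjusted levels. Trained rats ranged from 11.1 to 31.5 CPM (median 20.3) and untrained rats from 12.3 to 29.3 CPM (median 20.6), with complete overlap. In the model the trained minus untrained difference was -0.14 ± 0.043 (log2), a level 0.908 times that of untrained rats (limma-voom, adjusted p = 0.0322, with 9.19% of genes called). With sex as the only covariate it was -0.027 ± 0.049. Ist1 ranged from 54.7 to 131.1 CPM (median 98.5) in trained and from 54.2 to 116.2 CPM (median 89.9) in untrained rats, with a model difference of -0.040 ± 0.024 (95% interval -0.086 to 0.0063; limma-voom, adjusted p = 0.353). Vps9d1 ranged from 7.01 to 24.8 CPM (median 14.0) and from 8.39 to 21.6 CPM (median 12.8), with a model difference of 0.019 ± 0.040 (95% interval -0.061 to 0.098; limma-voom, adjusted p = 0.858). For Ist1 and Vps9d1 the lower unadjusted medians of the untrained rats went with a lower intergenic share, 12.7% on average in untrained and 13.5% in trained rats, and a higher ribosomal share, 1.38% and 1.09%. Spg7 fell like Afg3l1, by -0.12 ± 0.042 (limma-voom, adjusted p = 0.0793).

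Of the 37 untrained rats, 30 were in batch 3, 4 in batch 1 and 3 in batch 2. Most of the untrained rats came from families 11 and 12, and families 2, 3 and 5 held only trained rats. Training can therefore not be fully told apart from family. The Afg3l1 difference was -0.22 ± 0.070 in batch 3 (limma-voom, adjusted p = 0.0606), -0.076 ± 0.099 in batch 2 and 0.060 ± 0.11 in batch 1. It missed the threshold with family added (-0.11 ± 0.046; adjusted p = 0.143), with dissection day added (-0.097 ± 0.052; adjusted p = 0.323) and among the 123 rats of the 3 dates of death that held trained and untrained rats (-0.12 ± 0.061; adjusted p = 0.246). It was called in males (-0.29 ± 0.087; limma-voom, adjusted p = 0.0221) and not in females (-0.088 ± 0.054; adjusted p = 0.564), a difference between the sexes that was not tested. All 16 untrained males were in batch 3, beside 6 of the 106 trained males, and untrained males were 113 to 118 days old and trained males 118 to 123, so training in males cannot be told apart from age and largely not from batch. In the model Tcf7l2 and Slc17a6 were higher in trained rats by 0.62 ± 0.18 and 0.43 ± 0.13 and Slc17a7 lower by -0.16 ± 0.037 (limma-voom, adjusted p = 0.0179, 0.0300 and 0.00343). The summed thalamus markers ranged from 12.7 to 203.5 CPM in trained and from 16.1 to 91.6 CPM in untrained rats. Before adjustment their median was lower in trained rats, 31.5 against 36.4 CPM, so the higher level in trained rats appeared only with the covariates in the model. With them in the model Afg3l1 differed by -0.14 ± 0.044 (adjusted p = 0.0556).

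The side of the hippocampus made no detectable difference. On the left, Ist1 had a median of 99.1 CPM, Vps9d1 14.3 CPM and Afg3l1 20.8 CPM, and on the right 95.4, 13.7 and 19.7 CPM. Right minus left was 0.014 ± 0.013 for Ist1 (95% interval -0.011 to 0.040), 0.010 ± 0.022 for Vps9d1 (-0.033 to 0.053) and 0.0082 ± 0.024 for Afg3l1 (-0.039 to 0.055), on the log2 scale. Limma-voom called 0% of the 19448 genes for side. Of them, 1048 had an unadjusted p under 0.05, about the share that this cut passes with no effect. EdgeR's quasi-likelihood test called 6, none of these 3.

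LocoScore ran from 40 to 1461 beam breaks with a median of 475. Afg3l1 had a slope of 0.014 ± 0.0041 (log2 per 100 beam breaks, SE), Vps9d1 a slope of -0.013 ± 0.0037 and Ist1 -0.0034 ± 0.0023. Per SD of LocoScore these were 0.042 ± 0.012, -0.038 ± 0.011 and -0.010 ± 0.0068, beside a median absolute slope of 0.011 over all genes tested. Afg3l1 leaned higher and Vps9d1 lower in more active rats. The Ist1 slope was near the median size of all genes, though Ist1 varied less than most. Its adjusted SD was 0.10, beside a median of 0.25 over all genes. Spg7 had 0.046 ± 0.012 per SD. In this model 0.0103% of all genes were called at an FDR of 0.10. The study drew on this same relation in these rats to choose the 3 genes, so no test of them and nothing further is read from it.

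Both parts of LocoScore gave the same picture. Per SD of lateral beam breaks the slopes were 0.040 ± 0.012 for Afg3l1, -0.035 ± 0.011 for Vps9d1 and -0.0099 ± 0.0069 for Ist1, and per SD of rearing they were 0.042 ± 0.012, -0.038 ± 0.011 and -0.010 ± 0.0068. The slope of Afg3l1 per 100 beam breaks was 0.019 ± 0.0059 in males and 0.012 ± 0.0056 in females, and that of Vps9d1 -0.012 ± 0.0057 and -0.011 ± 0.0044. By batch, Afg3l1 had 0.021 ± 0.0057, 0.011 ± 0.0062 and 0.0072 ± 0.011. Vps9d1 had -0.017 ± 0.0050 in batch 1 and 0.0016 ± 0.0078 in batch 3.

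**Figure D3:**
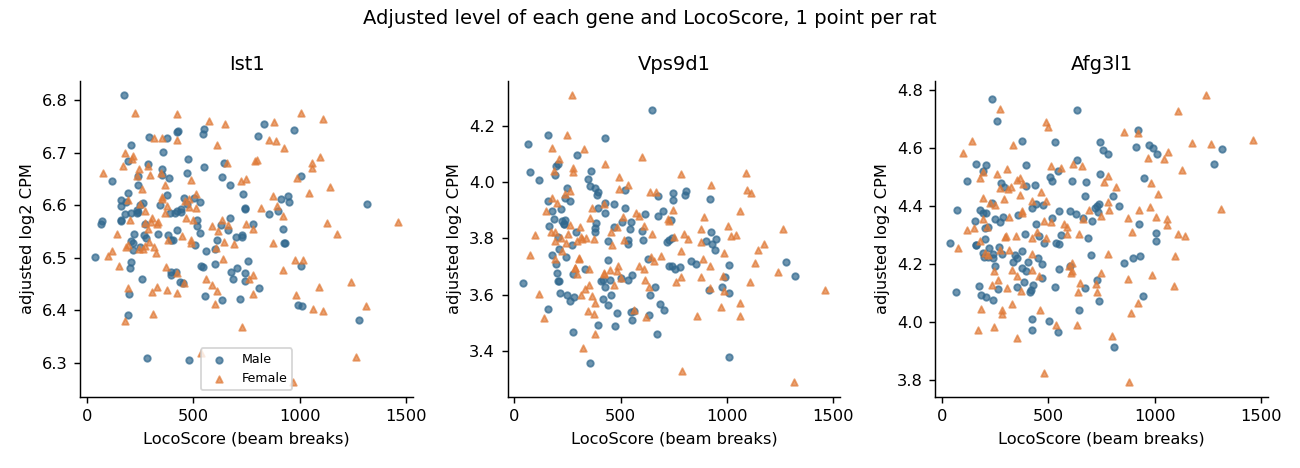
Adjusted log2 CPM (y axis) against LocoScore in beam breaks (x axis) for the 3 genes, with 1 point per rat, circles for 122 males and triangles for 123 females. Afg3l1 drifted upward and Vps9d1 downward with LocoScore (slopes 0.014 and -0.013 log2 per 100 beam breaks) through a wide scatter, and the sexes overlapped.

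For EPM distance and time immobile, Afg3l1 and Vps9d1 again had signs opposite to each other, at smaller sizes than for LocoScore. Per SD of distance traveled, Afg3l1 had 0.024 ± 0.013, Vps9d1 -0.020 ± 0.012 and Ist1 -0.0079 ± 0.0071 (median absolute slope of all genes 0.010). Per SD of time immobile the signs were turned, with -0.026 ± 0.014, 0.017 ± 0.013 and 0.0093 ± 0.0078 (0.013 over all genes). For open arm time all 3 were within 1 SE of 0, with 0.0081 ± 0.013 for Afg3l1, 0.00047 ± 0.012 for Vps9d1 and 0.0054 ± 0.0069 for Ist1.

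The PavCA Index (-0.90 for the strongest goal-tracker to 0.91 for the strongest sign-tracker, 205 rats) followed the same order. Per SD, Afg3l1 had 0.035 ± 0.014, Vps9d1 -0.028 ± 0.013 and Ist1 -0.014 ± 0.0084, with a median absolute slope of 0.012 over all genes. The model called 0.00515% of all genes, and no test of the members is read from it. All 8 separate scores of days 6 and 7 (response bias, probability difference, latency score and the index of each day) were positive for Afg3l1, and all 8 were negative for Vps9d1 and for Ist1. These scores come from the same rats and sessions. Median adjusted Afg3l1 was 4.27 log2 CPM in 38 goal-trackers (3.94 to 4.63), 4.34 in 87 intermediate rats (3.79 to 4.77) and 4.36 in 80 sign-trackers (3.91 to 4.78). Median adjusted Vps9d1 was 3.81 in goal-trackers (3.36 to 4.17), 3.80 in intermediate rats (3.46 to 4.31) and 3.77 in sign-trackers (3.29 to 4.26). The classes overlapped almost fully for both genes.

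**Figure D4:**
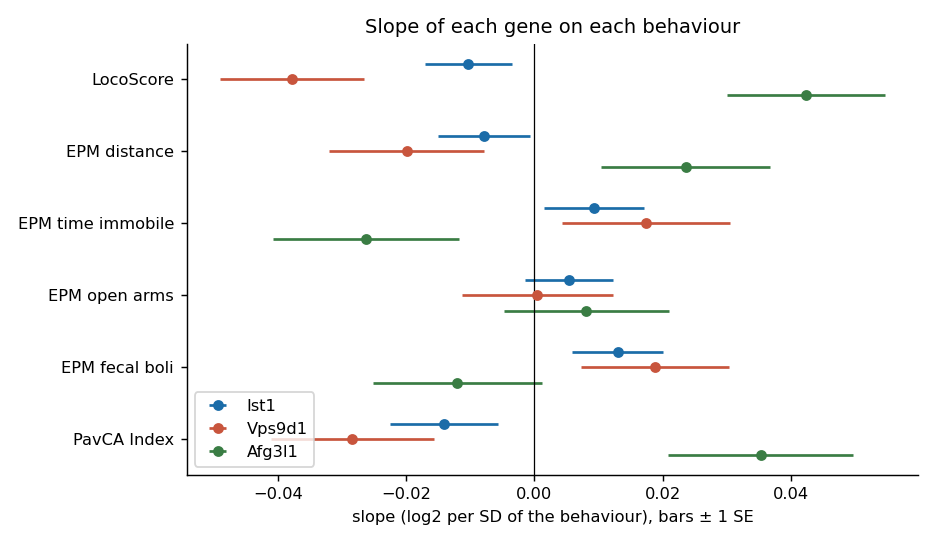
Slope of each gene on each behavior in log2 CPM per SD of the behavior (x axis, bars ± 1 SE), with 1 row per behavior and 1 color per gene. Afg3l1 and Vps9d1 lie on opposite sides of 0 for LocoScore (0.042 and -0.038), EPM distance, time immobile and the PavCA Index, while Ist1 lies nearer to 0.

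Fecal boli in the EPM (0 to 8, median 0, 242 rats) had no part in the choice of the genes and were tested. The slopes per bolus were 0.0081 ± 0.0044 for Ist1 (95% interval -0.00058 to 0.017), 0.012 ± 0.0072 for Vps9d1 (-0.0025 to 0.026) and -0.0075 ± 0.0082 for Afg3l1 (-0.024 to 0.0086), each with adjusted p = 0.986 in limma-voom. No gene of the table was called for boli (0%). Whether the slopes on behavior differed between the sexes was tested as an interaction for LocoScore, EPM distance, time immobile, open arms and the PavCA Index. None of the 15 interactions (3 genes, 5 behaviors) passed, with adjusted p from 0.679 to 1.00 in limma-voom. For LocoScore the female minus male difference in slope was 0.0017 ± 0.0046 for Ist1, 0.0064 ± 0.0075 for Vps9d1 and -0.0042 ± 0.0083 for Afg3l1 per 100 beam breaks, in a test that called 0.329% of genes. The time immobile interaction called 0.00514% of genes and the other 3 called 0%.

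Family means of the adjusted levels differed most for Vps9d1. The 12 families held 13 to 27 rats. The share of adjusted variance between families was 14.7% for Vps9d1, 10.3% for Afg3l1 and 4.85% for Ist1, with a median of 8.15% over all genes tested and 90% of genes between 2.77% and 19.2%. For Spg7 it was 15.0%. Vps9d1 was highest in family 7 (3.88 ± 0.19 log2 CPM, SD, n = 21) and family 2 (3.88 ± 0.11, n = 20) and lowest in family 1 (3.67 ± 0.19, n = 17) and family 9 (3.68 ± 0.17, n = 26). Families 7 and 2 also had the lowest mean LocoScores, 292.9 and 342.4 beam breaks, and family 9 the highest, 717.8. Family 1 stood between them at 542.2.

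Afg3l1 was lowest in family 1 (4.23 ± 0.16 log2 CPM, SD, n = 17), family 2 (4.23 ± 0.18, n = 20) and family 7 (4.25 ± 0.13, n = 21) and highest in family 12 (4.41 ± 0.24, n = 13) and family 4 (4.41 ± 0.21, n = 26). Families 2 and 7 were thus at the upper end for Vps9d1 and near the lower end for Afg3l1, while family 1 was low for both. Family 12, highest for Afg3l1 and made up mostly of untrained rats, had a low mean LocoScore of 410.5 beam breaks, and family 4 had 672.2. Over the 12 family means the correlation with mean LocoScore was 0.50 for Afg3l1, -0.45 for Vps9d1 and 0.0087 for Ist1, and that of Afg3l1 with Spg7 was 0.89, as descriptions. Within families the Afg3l1 slope on LocoScore was positive in 6 of 12 and negative in 6, that of Vps9d1 negative in 8 of 12 and that of Ist1 negative in 9 of 12. With family in the model the LocoScore slopes were 0.011 ± 0.0045 for Afg3l1 and -0.0081 ± 0.0041 for Vps9d1 per 100 beam breaks.

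**Figure D5:**
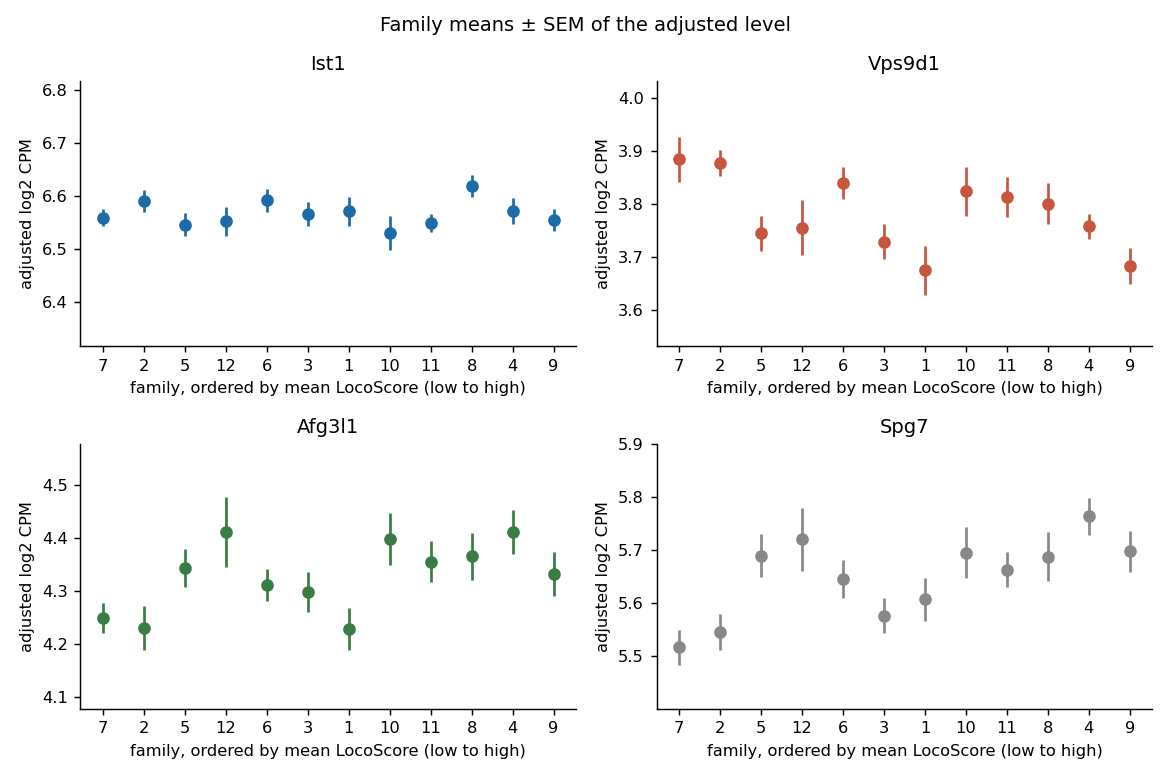
Mean adjusted log2 CPM ± SEM (y axis) of Ist1, Vps9d1, Afg3l1 and Spg7 in each of 12 families, ordered from the lowest to the highest mean LocoScore (x axis). Families 7 and 2, with the lowest LocoScores, were highest for Vps9d1 and low for Afg3l1 and Spg7, and Ist1 varied least. Family 12, also low in LocoScore, was high for Afg3l1 and Spg7.

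The partners of the 3 proteins could be followed only in part, since most symbols had no id paired with them. Of 19 ESCRT-III proteins and partners listed for Ist1, 3 were paired and tested. None passed the threshold for sex or training. Chmp2a, a core ESCRT-III filament protein, had a sex difference of 0.012 ± 0.017 and a training difference of 0.044 ± 0.029. Vta1, an activator of VPS4, had -0.0094 ± 0.012 and -0.012 ± 0.021. Chmp4c, which acts late in cell division, was at a mean of 1.04 CPM with -0.0082 ± 0.078 and -0.16 ± 0.12. Of the 3, Chmp4c had the largest correlation with adjusted Ist1 in size, -0.18. With adjusted Vps9d1 the values were -0.30 for Chmp2a, -0.32 for Vta1 and -0.078 for Chmp4c.

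Of 19 VPS9-domain and early endosome genes listed for Vps9d1, 2 were paired, and neither passed. Ankrd27, another VPS9-domain exchange factor, had a training difference of -0.094 ± 0.039 (limma-voom, adjusted p = 0.136). Its correlation was 0.20 with adjusted Vps9d1 and 0.37 with adjusted Ist1. Rabep2, a Rab5-binding endosomal protein, had a training difference of 0.072 ± 0.031 (limma-voom, adjusted p = 0.159) and a correlation of 0.015. Of 20 m-AAA and mitochondrial protease genes listed for Afg3l1, only Spg7 was paired, and it was called lower in females and in trained rats. Adjusted Spg7 and Afg3l1 correlated at 0.71, so these calls are not independent of those of Afg3l1. The Spg7 calls were not rerun under the alternative settings. Of 33 listed neighbors of the genes on chromosome 19, Spg7 was again the only paired one.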

How the data were processed

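Hippocampal polyA libraries of 250 F2 rats were analyzed. The authors aligned reads to Rnor6 with STAR 2.7.3a, kept uniquely mapped reads and counted them by strand per gene of Ensembl release 103 with Subread 2.0.0, and the deposited values are raw counts. The table has 32883 genes, 6706 of them without a read in any library.

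Here the 5 libraries that the labels mark as failing quality control were left out. The 19448 genes that reached 1 read in 25% of the rats were scaled by TMM and fitted with limma-voom (R 4.3.3, limma 3.58.1, edgeR 4.0.16), with adjustment over all genes at an FDR of 0.10. Following the study's model, each behavior stood beside sex, batch, dissector, PavCA experience and the ribosomal and intergenic percentages. Intergenic percentage was recomputed as what the mRNA, intronic and ribosomal shares leave of 100. The labels state no batch, so 3 batches were read from breaks in the library numbers. An EPM distance above 5000 cm was left out, and the PavCA Index model had no training term. Adjusted levels are voom log2 CPM values (0.5 added to each count) minus the fitted covariates. Each rat is a separate animal, and families share parents.

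The ids of Vps9d1, Afg3l1 and Spg7 were read from an image of the study's candidate table, and nearly all of the 1994 id to symbol pairs came from its other tables. Permutation tests planned for the correlations between the 3 genes are not quoted, since the genes were picked on related measures in these rats. Of 126 listed pathway, neighbor and marker entries, 15 could be tested, and no marker of microglia or endothelium was among them. Markers of choroid plexus (Folr1) and oligodendrocytes (Mag) passed the threshold for neither sex nor training. Named genes were the 3 members, the 3 most alike and 3 most opposed genes of each (fewer where an id had no symbol), and list genes called for sex or training or most correlated with their member. Members and lists were chosen with earlier results of these data known. The model was tested on simulated data over 19418 genes for sex and 19417 for training. It recovered 88% of genes changed 1.1-fold between the sexes and 16% of those changed 1.1-fold with training. False calls numbered 14 and 19. The simulated counts had a common dispersion and no effect of intergenic or ribosomal share, batch, dissector or family. These rates therefore do not give the power in the real data. The library with the fewest reads of Vps9d1 held 122, and the part of counting noise in the spread was not tested. Alternatives were DESeq2 1.42.0, edgeR, limma-trend, other filters and other covariates.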

Additional observations from a re-analysis of the deposited data

How the results depend on the processing

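The Afg3l1 sex difference (log2, -0.072) stayed negative but missed the FDR of 0.10 without a filter beyond 1 read (-0.068), with sex as the only covariate (-0.065), with thalamus markers added after seeing the data (-0.074), and within batches 1, 2 and 3 (-0.046, -0.031, -0.082), which hold fewer rats. The Vps9d1 sex difference was called within batch 2 only (-0.13). The Afg3l1 training difference (-0.14) missed it with sex as the only covariate (-0.027), family added (-0.11), dissection day added (-0.097), within batch 2 (-0.076), in females (-0.088) and on shared dates of death (-0.12), and turned to 0.060 within batch 1. With sex as the only covariate the training difference of Ist1 turned to 0.14 and was called, as was that of Vps9d1 (0.17). The causes were not tested.

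LocoScore slopes per 100 beam breaks moved by over 1 SE with sex as the only covariate (Ist1 -0.011, Vps9d1 -0.024, Afg3l1 0.0084), with family added (Vps9d1 -0.0081), within batch 1 (Vps9d1 -0.017, Afg3l1 0.021), batch 2 (Ist1 -0.0064), batch 3 (Ist1 6.36e-05, Vps9d1 0.0016, Afg3l1 0.0072) and in males (Afg3l1 0.019). Without covariates removed, r turned to 0.49 for Ist1 with Afg3l1 and 0.55 for Vps9d1 with Afg3l1. In smaller sets of rats r was -0.17 (males), -0.20 (batch 2) and -0.26 (batch 3) for Vps9d1 with Afg3l1, 0.14 (females) and 0.21 (batch 3) for Ist1 with Vps9d1, and -0.13 (batch 3) for Ist1 with Afg3l1. No side, boli or sex by LocoScore result of the 3 genes crossed the threshold under any alternative run.

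Over all genes, 1766 were called for sex and 1788 for training, against 355 and 5585 with sex as the only covariate, 872 and 952 with thalamus markers added, and 849 for training with dissection day added. DESeq2 size factors moved the training calls from 1040 higher and 748 lower to 1508 and 459. No paired analysis was possible because the replicate numbers only name rats in accession order.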

Other observations

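The 5 libraries left out lay within or close to the range of the others for all 3 genes. Female replicate 95, one of a pair that the labels mark for a sex label at odds with its sex chromosome genes, had 2.79 log2 CPM of Vps9d1, below the 2.81 of the lowest library used. The libraries left out for a low RNA integrity number had 4.22 and 3.78 log2 CPM of Vps9d1.

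The log2 ratio of Afg3l1 to Vps9d1 counts within a library, which needs no scaling between libraries, ran from -0.25 to 1.42 with a median of 0.53. Across the 245 rats it correlated at -0.51 with intergenic percentage and at 0.27 with LocoScore, and its slope on LocoScore beside the same covariates was 0.026 ± 0.0061 log2 per 100 beam breaks. This ratio was chosen after the slopes of both genes were seen, so it is a description and carries no test.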
